A study of Homo sapiens with 32 samples.

Results

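The genes described here are the clustered histone genes of PC-3 cells, a human prostate adenocarcinoma line, measured on Illumina expression arrays. They were taken as every probe whose symbol, matched through its Entrez ID, belongs to the linker histones H1-1 to H1-5 or to the H2AC, H2BC, H3C or H4C genes, with the brightest probe kept where a gene had several. This gave 62 genes of 16591 with a named probe: 5 of class H1, 16 of H2A, 18 of H2B, 11 of H3 and 12 of H4. By position 53 lie on chromosome 6 and 9 on chromosome 1.

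The cells came as 32 arrays in 2 experiments of 16. In one, cells received 5.5 µM 4-hydroperoxycyclophosphamide, spelled 4-Hydro peroxy cyclophosphamide in the labels and called the active compound, or vehicle. In the other they received cyclophosphamide, a prodrug that needs liver enzymes for its activation and is called inactive in the labels, or vehicle. The treatment protocol gives 5.5 µM for the inactive compound too. Cells were harvested after 10, 24 and 48 h. At these times the active compound had 2, 2 and 3 arrays, against 3 vehicle arrays each, and the inactive compound had 3, 3 and 2 arrays, against 3, 3 and 2 of its own vehicle. Whether a group's arrays are separate cultures is not labelled, so the p-values reflect the spread between arrays, which may be technical.

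Histones package DNA: H2A, H2B, H3 and H4 form the core of the nucleosome, and H1 binds the linker DNA between cores. The clustered genes supply them while DNA is copied in S phase. Their mRNAs usually end in a stem-loop bound by the protein SLBP instead of a poly(A) tail, though several of these genes also give polyadenylated transcripts, for example in cells that leave the cycle. Per the labels, RNA was amplified with an Illumina TotalPrep kit, which primes on poly(A) tails, so the arrays read mainly polyadenylated forms and not the whole histone mRNA pool. Fewer cells in S phase and less histone RNA per cell cannot be told apart in such bulk samples. Several genes are near-identical copies of others (H2AC18 and H2AC19, H4C14 and H4C15), so a probe may read more than 1 gene.

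The promoters of 6 members that the results turn on are shown because these genes moved together under the active compound at 24 or 48 h. The 120 bases before the RefSeq start (GRCh38.p14) are printed with 4 motifs in capitals, on either strand: the octamer ATTTGCAT, known as the site of OCT1 in H2B promoters, CCAAT, the TATA box TATAAA, and GGTCC, taken as the core of the H4 promoter's site II.
H2BC11, chr6:27132796-27132915, minus strand: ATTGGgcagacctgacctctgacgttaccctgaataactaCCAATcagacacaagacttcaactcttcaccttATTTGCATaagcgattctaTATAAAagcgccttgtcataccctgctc
H2BC5, chr6:26158001-26158120, plus strand: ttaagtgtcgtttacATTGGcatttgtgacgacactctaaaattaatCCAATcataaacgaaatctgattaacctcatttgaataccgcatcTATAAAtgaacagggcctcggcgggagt
H2BC21, chr1:149886683-149886802, minus strand: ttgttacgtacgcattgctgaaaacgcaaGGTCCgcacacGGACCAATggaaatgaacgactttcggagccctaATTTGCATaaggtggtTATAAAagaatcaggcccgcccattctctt
H2AC6, chr6:26124052-26124171, plus strand: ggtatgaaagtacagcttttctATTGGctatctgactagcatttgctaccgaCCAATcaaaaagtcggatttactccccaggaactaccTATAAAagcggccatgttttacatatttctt
H4C8, chr6:26285535-26285654, minus strand: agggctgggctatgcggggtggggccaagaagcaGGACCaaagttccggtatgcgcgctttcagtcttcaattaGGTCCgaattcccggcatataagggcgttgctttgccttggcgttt
H4C14, chr1:149832537-149832656, plus strand: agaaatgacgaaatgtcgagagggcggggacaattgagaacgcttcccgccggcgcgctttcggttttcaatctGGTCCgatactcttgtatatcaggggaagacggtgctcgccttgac

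In the H2BC21 promoter a CCAAT and a reversed GGTCC overlap, as the joined run of capitals shows. Over the 250 bases before each start, the octamer stood in 11 of 15 H2A and 14 of 18 H2B promoters, in 1 of 9 H3 promoters and in 0 of 5 H1 and 0 of 10 H4 promoters, while 1.66% of 27305 human promoters of the same length held it. CCAAT stood in every H1, H2A, H2B and H3 promoter and in 3 of 10 H4 promoters, against 33% of all promoters. GGTCC stood in 9 of 10 H4 promoters, against 40.4% of all. TATAAA stood in 50% of the H4 and 73.3% of the H2A promoters, the ends of the range over classes, against 11.1% of all. Promoters were at hand for 57 of the 62 genes, and a match of letters is a description of the window and not a binding site. In 11 divergent pairs of an H2A and an H2B gene the starts lie 194 to 248 bases apart. The windows of such a pair overlap, so 1 match can count for both genes. H3C4 and H2AC7 have the same RefSeq start here, so the H3 counts include that window.

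Of the 62 genes, 34 had a probe among the brightest 60% (a mean of at least 6.66 log2 intensity over the 12 group means) and were tested: 2 of H1, 10 of H2A, 10 of H2B, 5 of H3 and 7 of H4. The other 28 were dimmer, and their mean log2 differences between active compound and vehicle at 24 h lay between -0.32 and 0.26. The H4C3 probe had a raw intensity between 7487 and 36211 on the single arrays and averaged 14.19 log2 units. The brightest tested probes of the other classes were those of H2BC12, H2AC20, H1-2 and H3C3, with means of 12.68, 9.21, 9.11 and 7.20 log2 units. A call below means a Benjamini-Hochberg adjusted p under 5% over all 10598 genes tested in limma, with the spread estimated from the 16 arrays of that experiment.

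The arrays of the inactive experiment were noisier. The median residual SD of the 34 histone genes was 0.112 log2 units over the arrays of the active experiment and 0.227 over those of the inactive one, and 0.110 and 0.186 over all genes. In the inactive experiment the vehicle arrays of the third run, as the letters ending the titles name runs, also went against their time labels. Their 24 h minus 10 h differences correlated at -0.36 and -0.31 with those of the first and second runs, which correlated with each other at 0.19, while the 3 runs of the active experiment correlated at 0.25 to 0.37. Genes known to be expressed in PC-3 cells (KRT8, KRT18, CAV1, CD44, VIM) stood between the 88.9 and 98.5 percentile of probes, and KLK3, the prostate antigen that PC-3 cells lack, at the 14.9 percentile.

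At 10 h under the active compound most histone genes stood slightly lower than in vehicle, and 1 of them passed the test. The called gene was H2BC11, one of the H2B genes, beside 1.1% of all genes called lower and 0.547% called higher. It measured 7.84 and 7.72 log2 units in active-compound cells, against 8.19, 8.01 and 8.33 in vehicle cells. The groups do not overlap. The difference was -0.39 ± 0.10 (SE), or 1.31-fold lower, with an adjusted p of 0.0407. By sign 29 of 34 histone genes were lower, with a median of -0.16, while over all genes 5319 of 10598 were lower and the median was 0.00. None was called higher, and at an unadjusted p under 0.05 there were 8 of 34, all lower, beside 1870 of all 10598 genes in either direction.

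The H2BC11 call at 10 h did not hold with 1 spread shared by all 32 arrays, under median scaling, without the level filter, with the runs as a block, or on leaving out any of 4 of the 5 arrays. Of all genes called at 10 h, 33.1% were higher, and 60% under median scaling.

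At 24 h a group of core histone genes, most of them H2B and H2A, was lower in active-compound cells. In limma 11 of the 34 fell and 0 rose, beside 0.783% of all genes called lower and 1.13% called higher. The 11 were 5 of 10 H2B genes (H2BC11, H2BC5, H2BC8, H2BC12, H2BC21), 3 of 10 H2A genes (H2AC6, H2AC11, H2AC20), 2 of 5 H3 genes (H3C3, H3C10) and 1 of 7 H4 genes (H4C5), with 0 of 2 for H1. At an unadjusted p under 0.05 there were 21 lower and 0 higher, beside 1357 of all 10598 genes in either direction. The median difference was -0.31 for H2B, -0.27 for H2A, -0.22 for H1, -0.20 for H4 and -0.17 for H3, and 0.00 over all genes. Whether the classes differ was not tested.

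H2BC11 measured 8.04 and 8.24 log2 units in active-compound cells at 24 h, against 8.87, 8.87 and 8.90 in vehicle cells. It fell by 0.74 ± 0.10 on the log2 scale (SE; 1.67-fold lower; adjusted p = 5.15e-05). H2BC5, whose promoter above has CCAAT and TATAAA and no octamer, measured 8.37 and 8.47 in active-compound cells, against 9.28, 9.00 and 9.07 in vehicle cells. These 2 H2B genes had the lowest differences of the 34, with a gap between the groups wider than either group's own range. H2BC5 fell by 0.69 ± 0.09 (1.62-fold lower; adjusted p = 5.15e-05).

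H2AC6 measured 8.02 and 8.07 in active-compound cells, against 8.81, 8.56 and 8.72 in vehicle cells, and fell by 0.65 ± 0.10 (adjusted p = 5.11e-04). H2AC11, the H2A gene opposite H2BC11, measured 6.67 and 6.63 in active-compound cells, against 7.48, 7.33 and 7.01 in vehicle cells. H2AC20 measured 8.79 and 8.89 in active-compound cells, against 9.43, 9.14 and 9.23 in vehicle cells. None of the 3 H2A genes had an active-compound array inside the vehicle range. The differences of H2AC11 and H2AC20 were -0.62 ± 0.13 and -0.43 ± 0.10 (adjusted p of 0.00788 and 0.0231).

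Among the other H2B genes, H2BC8 measured 7.04 and 7.31 in active-compound cells, against 7.79, 7.69 and 7.77 in vehicle cells. H2BC12 measured 12.15 and 12.14 in active-compound cells, against 12.73, 12.73 and 12.45 in vehicle cells. H2BC21 measured 7.46 and 7.64 in active-compound cells, against 7.94, 7.96 and 7.90 in vehicle cells. All 3 were separated from vehicle on every array. Their differences were -0.57 ± 0.10 for H2BC8, -0.49 ± 0.10 for H2BC12 and -0.38 ± 0.10 for H2BC21, with adjusted p of 0.00147, 0.00682 and 0.0415.

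The other 3 genes lower at 24 h encode H3 and H4. H3C3 measured 6.93 and 6.93 in active-compound cells, against 7.51, 7.30 and 7.45 in vehicle cells. H3C10 measured 7.07 and 6.88 in active-compound cells, against 7.44, 7.43 and 7.40 in vehicle cells. H4C5 measured 6.87 and 6.67 in active-compound cells, against 7.16, 7.12 and 7.12 in vehicle cells. No array of one group reached into the other for these 3 genes. The differences were -0.49 ± 0.10, -0.45 ± 0.09 and -0.36 ± 0.09, in that order, with adjusted p of 0.00985, 0.00738 and 0.0346. H1-2, a linker histone gene that was not called, measured 8.20 and 8.24 in active-compound cells, against 8.80, 8.45 and 8.66 in vehicle cells (difference -0.42, adjusted p = 0.0570).

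The calls at 24 h rest on 2 active-compound arrays and on the spread used. The count of genes that fell was 7 under median scaling, 4 without the first active-compound array, 6 without the second and 6 without the first vehicle array, and with 1 spread shared by all 32 arrays it was 1 (H2BC8). In the 5 refits that each left out 1 array, H2BC11, H2BC5 and H2AC6 were called in all, H2BC8 and H3C10 in 4, H2BC12 in 3, H2AC20, H3C3 and H2AC11 in 2, and H2BC21 and H4C5 in 0. Of all genes called at 24 h, 59.1% were higher, and 76.6% under median scaling.

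**Figure D1:**
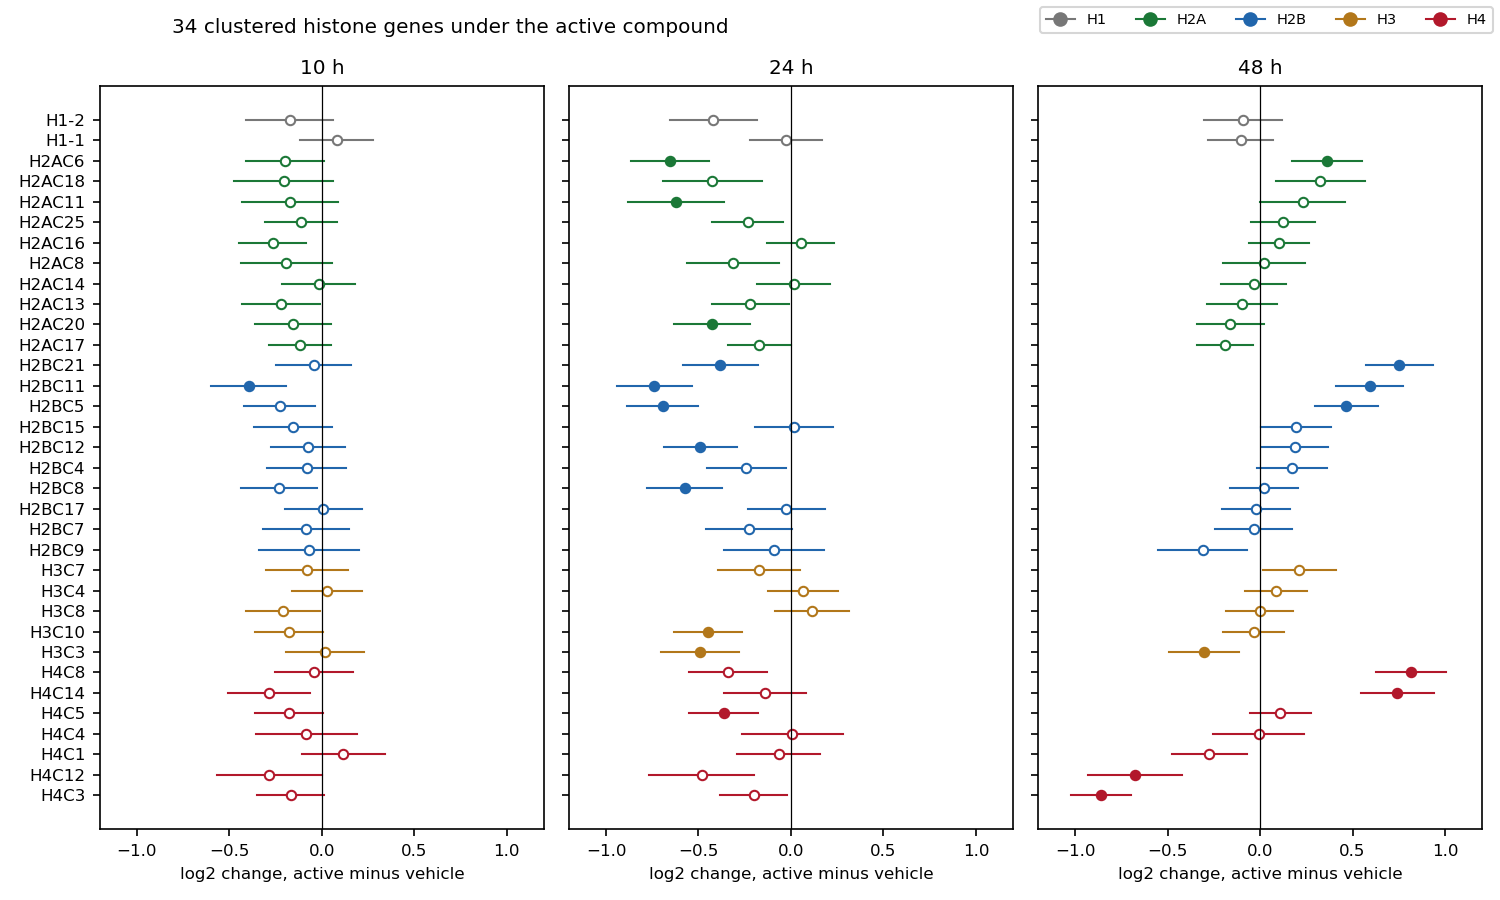
Log2 difference between active compound and vehicle (x axis) of each of the 34 tested histone genes (rows, coloured by class) at 10, 24 and 48 h. Bars are 95% intervals and filled points are genes called in limma: 1 at 10 h, 11 at 24 h, all of them lower, and 9 at 48 h, on both sides of 0.

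At 48 h histone genes were called in both directions. Of the 34, 6 were higher and 3 lower in active-compound cells, and 25 were not called. Over all genes 4.9% were called higher and 4.85% lower. The higher genes were 3 of 10 H2B (H2BC21, H2BC11, H2BC5), 1 of 10 H2A (H2AC6) and 2 of 7 H4 genes (H4C8, H4C14). The lower genes were 2 H4 genes (H4C3, H4C12) and H3C3. The class medians were 0.18 for H2B, 0.06 for H2A, 0.00 for H3, -0.01 for H4 and -0.10 for H1, with -0.01 over all genes, and H4 held both the highest and the lowest value of the 34. The median over the 34 was 0.02.

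H4C8 measured 9.86, 9.77 and 9.72 log2 units in active-compound cells at 48 h, against 8.92, 8.99 and 9.01 in vehicle cells. It rose by 0.81 ± 0.09 (1.76-fold; adjusted p = 2.13e-06). H4C14 measured 10.21, 10.05 and 10.28 in active-compound cells, against 9.41, 9.42 and 9.48 in vehicle cells. Both H4 genes were clear of vehicle on every array. H4C14 rose by 0.74 ± 0.10 (1.67-fold; adjusted p = 1.49e-05), with the reservation on near-identical copies given above.

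H4C3 went the other way, with 13.72, 13.56 and 13.52 in active-compound cells, against 14.43, 14.53 and 14.43 in vehicle cells. It fell by 0.86 ± 0.08 (1.82-fold lower; adjusted p = 8.92e-08). H4C12 measured 8.50, 8.44 and 8.44 in active-compound cells, against 9.14, 9.11 and 9.16 in vehicle cells, and fell by 0.68 ± 0.12 (1.60-fold lower; adjusted p = 6.87e-04). So 4 of the 7 tested H4 genes were called at 48 h, a pair higher and a pair lower, beside 4.9% and 4.85% of all genes. H3C3 measured 7.04, 6.79 and 7.12 in active-compound cells, against 7.35, 7.18 and 7.33 in vehicle cells, a difference of -0.30 ± 0.09 (adjusted p = 0.0355).

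H2BC21 measured 8.74, 8.85 and 8.86 in active-compound cells at 48 h, against 8.20, 7.94 and 8.06 in vehicle cells. It rose by 0.75 ± 0.09 (1.68-fold; adjusted p = 3.74e-06). H2BC11 measured 9.13, 9.24 and 9.27 in active-compound cells, against 8.50, 8.67 and 8.68 in vehicle cells. Both H2B genes, lower than vehicle at 24 h, stood above it on all 3 arrays. H2BC11 rose by 0.59 ± 0.09 (1.51-fold; adjusted p = 7.87e-05).

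H2BC5 measured 9.64, 9.59 and 9.71 in active-compound cells, against 9.16, 9.25 and 9.13 in vehicle cells, and rose by 0.47 ± 0.08 (adjusted p = 5.33e-04). H2AC6 measured 9.44, 9.14 and 9.09 in active-compound cells, against 8.95, 8.89 and 8.75 in vehicle cells. It rose by 0.36 ± 0.09 (adjusted p = 0.0117), and its gap between groups was the narrowest of the 6 higher genes. A dimmer probe of H2BC5 (mean of 6.80 log2 units) did not share its pattern, with differences of 0.10 at 24 h and -0.03 at 48 h.

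With 1 spread shared by all 32 arrays, 2 genes remained called higher at 48 h (H4C8, H2BC21) and 1 lower (H4C3). H3C3 was called in 2 and H2AC6 in 4 of the 6 refits that each left out 1 array, and the other 7 in all 6. Of all genes called at 48 h, 50.2% were higher, and 68.2% under median scaling.

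**Figure D2:**
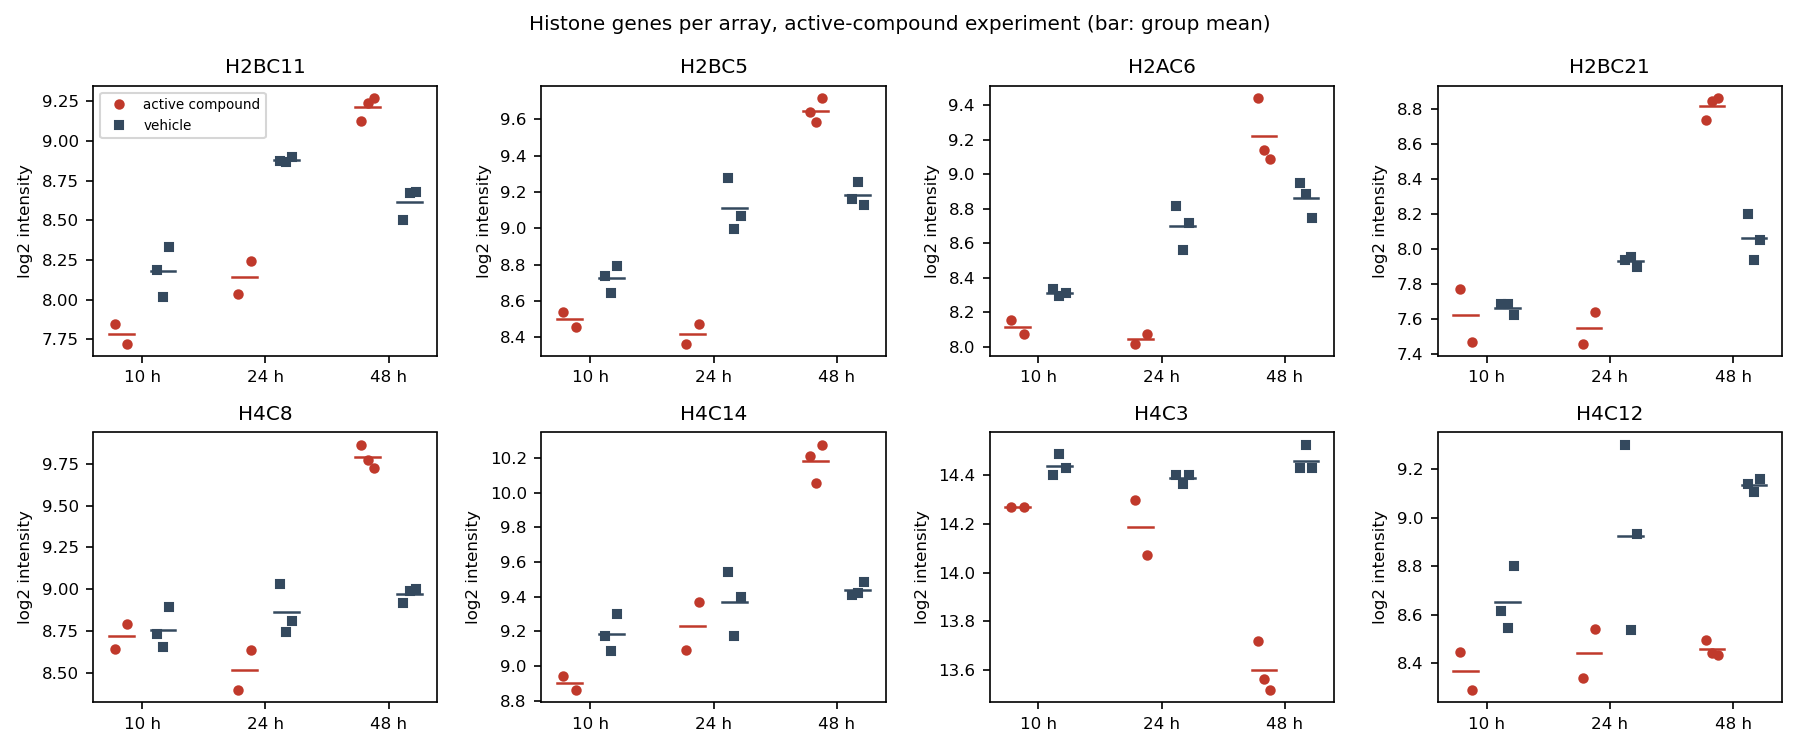
Log2 intensity (y axis, scaled per gene) of 8 histone genes on each array of the active experiment at 10, 24 and 48 h, with active compound left (circles) and vehicle right (squares) at each time and a bar at each group mean. H2BC11, H2BC5, H2AC6 and H2BC21 lie below vehicle at 24 h and above it at 48 h, H4C8 and H4C14 lie above it at 48 h, and H4C3 and H4C12 lie below it at 48 h.

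The change between the times was itself tested, as the difference between the active compound's effects at 48 h and at 24 h. Of the 34 genes 9 rose and 1 fell, beside 0.274% and 0.113% of all genes, so 10 of the 41 genes called in this contrast were histone genes. The 9 were 5 H2B genes, 2 H2A genes and 2 H4 genes. The estimates were 1.33 ± 0.13 for H2BC11 (adjusted p = 6.59e-06), 1.16 ± 0.12 for H2BC5 and 1.16 ± 0.14 for H4C8, 1.13 ± 0.13 for H2BC21 and 1.01 ± 0.14 for H2AC6. H4C14, H2AC11, H2BC12 and H2BC8 followed with 0.88, 0.85, 0.68 and 0.60. H4C3 was the gene that fell, by 0.66 ± 0.12 (adjusted p = 0.00890). Over the 34 the median was 0.30, and over all genes 0.00.

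Of the 11 genes lower at 24 h, 4 were called higher at 48 h (H2BC11, H2BC5, H2AC6 and H2BC21, whose call at 24 h was lost in each refit without an array), 1 was lower again (H3C3), and 6 were not called. H4C8 and H4C14, called at 48 h, had differences of -0.34 and -0.14 at 24 h that missed the threshold. In all, 15 of the 34 genes were lower by sign at 24 h and higher by sign at 48 h. Over all 10598 genes 5431 were lower by sign at 24 h and 5132 higher by sign at 48 h. How many genes did so at both times was not counted over all genes, so the 15 cannot be set against a share. Both effects are taken within one time against that time's own vehicle arrays, but the 2 active-compound arrays at 24 h enter the contrast as well as the 24 h result. The contrast called 5 histone genes without the first of them and 1 (H4C8) with 1 spread for all 32 arrays, and of all genes it called, 70.7% were higher, and 100% under median scaling.

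**Figure D3:**
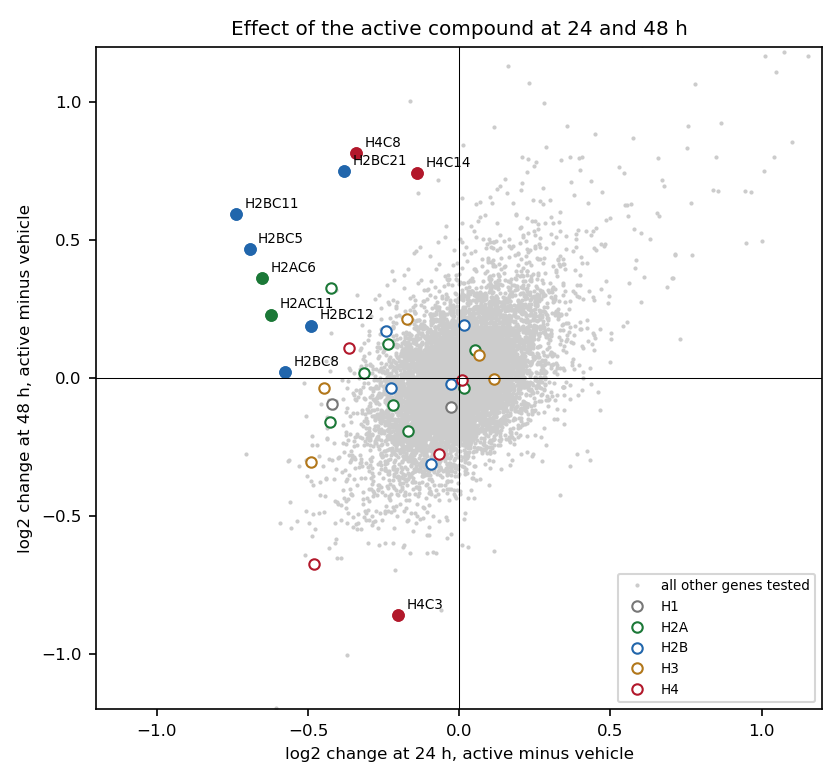
Log2 difference between active compound and vehicle at 24 h (x axis) and at 48 h (y axis) for the tested histone genes, coloured by class, over all other tested genes in grey (11 lie outside the axes). Filled points are the 10 histone genes whose effect changed between 24 and 48 h; 9 lie at the upper left, lower at 24 h than at 48 h, and H4C3 lies at the bottom.

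Set against the effect at 10 h, the effect at 48 h was higher for 6 histone genes and lower for 1, beside 2.88% and 2.23% of all genes. H4C14 had the largest such change, 1.03 ± 0.14, and H4C3 fell by 0.69 ± 0.12. The other 5 were H2BC11, H4C8, H2BC21, H2BC5 and H2AC6, with 0.99 to 0.56. From 10 to 24 h 0 of 34 were called in limma, beside 0.717% of all genes, with 12 histone genes and 1425 of all 10598 at an unadjusted p under 0.05, and 2 were called on leaving out the second active-compound array at 10 h. With 1 spread for all 32 arrays the change between 10 and 48 h had 0 histone calls.

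Histone genes also changed with time in vehicle cells. At 24 h against 10 h 3 genes rose in vehicle cells of the active experiment, beside 0.51% of all genes called higher: H2BC11 by 0.70 ± 0.09, H2BC5 by 0.39 ± 0.08 and H2AC6 by 0.39 ± 0.09. H2BC11 thus stood at 8.87 to 8.90 in vehicle cells at 24 h, against 8.01 to 8.33 at 10 h, while its active-compound arrays at 24 h (8.04 and 8.24) lay within that earlier range. The same 24 h vehicle arrays are used for the active compound's effect at 24 h, so these are not separate pieces of evidence. In vehicle cells of the inactive experiment the same 3 genes stood the other way: H2BC11 averaged 7.86 at 24 h, against 8.28 at 10 h, H2BC5 8.94, against 9.33, and H2AC6 8.93, against 9.36. For H2BC11 the first 2 runs gave 7.68 and 7.63 at 24 h, against 8.26 and 8.37 at 10 h, and the third run, which goes against its time labels, gave 8.26 against 8.22. This difference between 24 and 10 h was not tested in the inactive experiment.

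At 48 h against 10 h 6 genes rose in vehicle cells (H2AC6, H4C12, H2BC5, H2BC11, H2BC21, H2AC11), by 0.55 to 0.35, beside 5.94% of all genes called higher. Between 24 and 48 h 0 of 34 were called in limma, beside 2.86% of all genes, with 3 histone genes and 1773 of all 10598 at an unadjusted p under 0.05. Under median scaling 1 gene was called for 24 h against 10 h and 3 for 48 h against 10 h, and with 1 spread for all 32 arrays 0 in both. The share of higher calls over all genes fell to 8.25% and 20.2% under median scaling, against 39.1% and 51.2% without it. In vehicle cells of the inactive experiment 0 of 34 genes, and 0% of all genes, were called between 10 and 48 h in limma, with 0 histone genes at an unadjusted p under 0.05.

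The inactive compound left 0 of the 34 genes called at 10, 24 or 48 h in limma, where 0% of all genes were called at each time. At an unadjusted p under 0.05 there were 2 (H4C12 among them, at -0.49), 0 and 1 (H3C3, at -0.46) histone genes, all lower, with 522, 111 and 155 of all genes. Each of the other fits and each refit without an array also called 0 histone genes. The median over the 34 was 0.01, -0.05 and 0.00 at the 3 times. In simulated arrays this experiment's fit recovered 51% of changes of 0.6 log2 units at 24 h and 16% at 48 h. A count of 0 thus does not show that there was no effect.

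H2BC11 measured 7.71, 7.64 and 8.24 log2 units in inactive-compound cells at 24 h, against 7.68, 7.63 and 8.26 in vehicle cells. The third run is the high array in both groups. The difference was 0.01, with a 95% interval of -0.45 to 0.46. H4C3 measured 13.68 and 14.46 in inactive-compound cells at 48 h, against 13.99 and 14.30 in vehicle cells, so the groups overlap (difference -0.08, 95% interval -0.60 to 0.45). H4C8 measured 8.82 and 8.51 in inactive-compound cells at 48 h, against 8.56 and 8.55 in vehicle cells, a difference of 0.11 with an interval of -0.32 to 0.54. These intervals do not reach the active compound's estimates of -0.74, -0.86 and 0.81. Those estimates have errors of their own, and the 3 genes had the most extreme active effects of the 34 at these times. A difference between the compounds is therefore not shown by this, and their direct comparison is given below. The intervals come from a fit that does not pair arrays by run, so they include the spread between runs.

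H2BC21 was higher in inactive-compound cells than in vehicle cells on every array at 10 h, with 8.56, 8.29 and 9.02, against 8.16, 8.15 and 8.20. The difference of 0.45 had an interval of -0.05 to 0.96. At 24 h it measured 8.04, 8.03 and 8.61 in inactive-compound cells, against 7.69, 7.65 and 8.21 in vehicle cells (difference 0.38, interval -0.12 to 0.88). Neither difference passed the test. The fit does not pair arrays by run, so both intervals include the spread between runs. Within each of the 3 runs at 24 h the inactive-compound array stood above the vehicle array of its run.

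**Figure D4:**
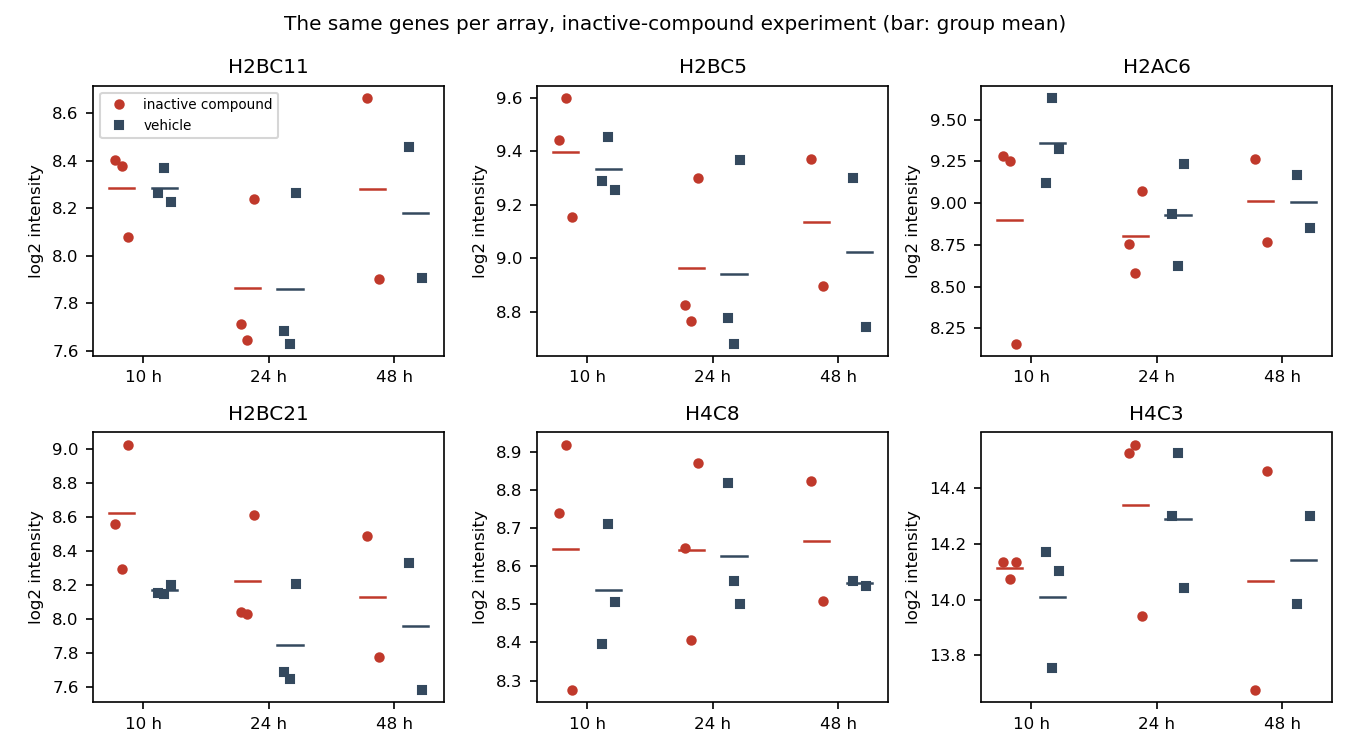
Log2 intensity (y axis, scaled per gene) of 6 histone genes on each array of the inactive experiment, with inactive compound left (circles) and vehicle right (squares) at each time and a bar at each group mean. The groups overlap for 5 of the 6 genes at every time; H2BC21 lies above vehicle at 10 h, and 1 array of each group stands apart at 24 h for H2BC11 and H2BC5.

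The compounds differ by the hydroperoxy group on the ring of the active one, and their effects were compared gene by gene at the 3 matched times, 102 comparisons of histone genes in all, with p adjusted over all genes tested at each time. Of the 34 genes 0 passed at each time in limma, beside 0.0189%, 0.0283% and 0.0189% of all genes, with 1, 9 and 5 histone genes, and 723, 384 and 545 of all genes, at an unadjusted p under 0.05. For H2BC11 the active effect minus the inactive effect at 24 h was -0.75 (95% interval -1.21 to -0.28, adjusted p = 0.906), and for H2BC5 it was -0.72 (-1.15 to -0.28). For H4C3 at 48 h it was -0.78 (-1.26 to -0.31), for H4C14 0.95 (0.34 to 1.56) and for H4C8 0.70 (0.25 to 1.16). These intervals lie on one side of 0 before adjustment only. A call under the active compound and none under the inactive one is therefore not shown to be a difference between them. Without the 4 arrays of the third run at 10 and 24 h the count remained 0 at both times.

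Histone genes often stand as divergent pairs that share the stretch between their starts. By RefSeq starts within 1000 bases of each other, 13 such pairs were found among the members, 11 of them an H2A with an H2B gene, and in 7 both genes were tested. H2BC11 and H2AC11, with 248 bases between their starts, were both lower at 24 h (-0.74 and -0.62) and had differences of 0.59 and 0.23 at 48 h. H2BC21 and H2AC20, with 236 bases between, were both lower at 24 h (-0.38 and -0.43), but at 48 h the first rose by 0.75 and the second had -0.16. H2BC8 and H2AC8 had -0.57 and -0.31 at 24 h, then 0.02 and 0.02. H2BC4 and H2AC6 had -0.24 and -0.65 at 24 h, then 0.17 and 0.36. H2BC17 and H2AC17 had -0.03 and -0.17 at 24 h, then -0.02 and -0.19. H2BC7 and H3C4 had opposite signs at both times (-0.23 and 0.06, then -0.03 and 0.08). The RefSeq start used for H3C4 is also that of H2AC7, 223 bases from that of H2BC7. It may thus not be a separate pair, though the counts here include it. H2BC9 and H3C7 had -0.09 and -0.17 at 24 h, then -0.31 and 0.21. The genes of a pair thus shared their sign in 6 of 7 pairs at 24 h, when 28 of the 34 members were negative, and in 4 of 7 at 48 h; no difference within a pair was tested. Of the 11 genes lower at 24 h, 7 had an octamer within 250 bases, as did 3 of the 6 higher at 48 h. All of these are H2A or H2B genes. Called or not, 11 of 15 H2A and 14 of 18 H2B promoters held the octamer. Whether called genes differ in this from the rest of their class was not tested.

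A set of 7 members known also as polyadenylated transcripts (H1-2, H2AC6, H2BC4, H2BC5, H2BC12, H2BC21, H4C8) held 4 of the 11 lower genes at 24 h and 4 of the 6 higher genes at 48 h. Its median was -0.42 at 24 h and 0.36 at 48 h, and that of the other 27 members was -0.20 and -0.01. The other 2 genes higher at 48 h, H2BC11 and H4C14, are not on that list. Apart from H2BC4 (7.17) its probes averaged at least 8.05 log2 units, while most of the other members were dimmer. The list was chosen with earlier results of these data known, and whether it differs from the other members was not tested.

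Other genes of S phase and of the histone pathway were read beside the members. Of 23 tested S phase genes 1 rose at 10 h under the active compound, beside 0.547% of all genes. At 24 h 6 fell and at 48 h 7 fell, beside 0.783% and 4.85% of all genes called lower. The medians were 0.13, -0.16 and -0.16. Under the inactive compound 0 were called at each time in limma (3, 1 and 0 at an unadjusted p under 0.05), with medians of -0.24, -0.12 and -0.14. For the active minus the inactive effect 0 were called (9, 1 and 0 unadjusted), with medians of 0.33, 0.02 and 0.01. In the active compound's contrast of 48 h with 24 h 0 were called in limma, with 1 at an unadjusted p under 0.05. Under the active compound PCNA, the sliding clamp of DNA polymerases, had differences of 0.31, -0.49 and -0.37 at 10, 24 and 48 h. E2F1, an activator of S phase genes, had -0.20, -0.41 and -0.53. Both passed at 24 and 48 h and missed at 10 h, and GINS2, a subunit of the replicative helicase, did likewise with 0.02, -0.40 and -0.45. CCNE2, a cyclin of S phase entry, rose by 0.75 at 10 h. CCNE2 did not pass at 24 or 48 h. The part of these genes in the histone result was not tested.

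Of 17 tested genes for histone transcription and mRNA processing 0 were called at any of the 3 times in limma, with 5, 0 and 0 at an unadjusted p under 0.05. SLBP, which binds the stem-loop, had 0.23, 0.00 and 0.03, and NPAT, the coactivator of histone loci, had 0.28, -0.07 and 0.09 at 10, 24 and 48 h.

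Among 10 tested replication-independent histone variants 1, 1 and 3 fell under the active compound at 10, 24 and 48 h and none rose. Over all genes 1.1%, 0.783% and 4.85% were called lower at these times. CENPA, the centromeric H3, fell by 0.99, 0.37 and 0.37. H3-3B, which encodes H3.3, fell by 0.48 at 48 h, and the linker variant H1-10 also fell by 0.48. Of 18 histone chaperones 1 rose and 1 fell at 10 h, beside 0.547% and 1.1% of all genes. HAT1, which acetylates new H4, rose by 0.47, and HJURP, the CENPA chaperone, fell by 0.48. None of the 18 was called at 24 h in limma, with 1 at an unadjusted p under 0.05. At 48 h 2 fell, among them IPO4 by 0.35, beside 4.85% of all genes called lower.

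The remaining 19 tested members were not called under the active compound at any time: H1-1, H1-2, H2AC8, H2AC13, H2AC14, H2AC16, H2AC17, H2AC18, H2AC25, H2BC4, H2BC7, H2BC9, H2BC15, H2BC17, H3C4, H3C7, H3C8, H4C1 and H4C4. Their differences lay between -0.27 (H2AC16) and 0.12 (H4C1) at 10 h, between -0.42 (H2AC18) and 0.11 (H3C8) at 24 h, and between -0.31 (H2BC9) and 0.33 (H2AC18) at 48 h. H2AC18 was thus at the low end of this group at 24 h and at its high end at 48 h.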

How the data were processed

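Illumina expression arrays of PC-3 cells were used. The deposited intensity values per probe and array are not normalized, and the deposited log2 values of the same arrays were processed by the authors, with BeadStudio and R 2.12.0 named in the submitters' processing notes; how they were normalized is not stated there. In limma 3.58.1 (R 4.3.3) the intensities got a normexp background correction with an offset of 50 and quantile normalization across all 32 arrays, then log2. The brightest probe per gene was kept, and probes among the brightest 60% were tested. Each experiment was fitted on its own 16 arrays (group means, eBayes), because their spreads differ, with Benjamini-Hochberg adjustment at 5% over 10598 genes. The compounds' effects were compared over all 32 arrays with array weights per experiment. The number of arrays limits the precision.

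The members and the gene lists were chosen with earlier results of these data known. Per-array values are given for genes called in a compound comparison and for the brightest tested gene of each class. Runs named by the title letters were checked as pairs. Deviations from group means correlated at -0.05 to 0.25 in the active experiment, where 6 of 7 pairs passed 0.1. In the inactive experiment they correlated at 0.16 to 0.69, and 8 of 8 pairs passed 0.1. The main fits did not take runs as pairs in either experiment. Runs entered as a block in an alternative fit only. The alternatives were no background correction, median scaling, the authors' log2 values, no level filter, 1 spread for all arrays, runs as a block, leaving out each array and, chosen after seeing the data, leaving out 4 arrays of the third run of the inactive experiment. The fits were tested on simulated data with 100 genes changed by 0.6 log2 units and 100 by 1. At 24 and 48 h the active experiment's fit recovered 100% and 99% of the changes of 0.6, and the inactive one's 51% and 16%. Changes of 1 were recovered at 100% at both times in the active experiment and at 97% and 77% in the inactive one. False calls were 2.91% and 7.87% of all calls in the active experiment, and 5.13% and 5.1% in the inactive one. Promoters are RefSeq sequences (GRCh38.p14).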

Additional observations from a re-analysis of the deposited data

Results flagged for a closer look

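The active compound's effect on 10 histone genes differed between 48 and 24 h, by a direct test of the difference in limma. On the log2 scale the effect at 48 h minus that at 24 h was 1.33 for H2BC11, 1.16 for H2BC5, 1.16 for H4C8, 1.13 for H2BC21 and 1.01 for H2AC6. It was 0.88 for H4C14, 0.85 for H2AC11, 0.68 for H2BC12, 0.60 for H2BC8 and -0.66 for H4C3. H2BC11, H2BC5, H4C8, H2BC21 and H2AC6 were called in all 11 refits that each left out 1 array, H4C3 and H4C14 in 10, H2BC12 in 6, H2AC11 in 5 and H2BC8 in 2.

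Between 48 and 10 h the effect differed for 7 genes, with 1.03 for H4C14, 0.99 for H2BC11, 0.85 for H4C8, 0.80 for H2BC21, 0.69 for H2BC5, 0.56 for H2AC6 and -0.69 for H4C3. The groups held 2 or 3 arrays each, too few to look for single outlying arrays.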

How the results depend on the processing

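With 1 spread for all 32 arrays the histone calls were 0 at 10 h, 1 lower at 24 h and 2 higher and 1 lower at 48 h under the active compound. They were 0 and 0 for vehicle at 24 and 48 h against 10 h, and 1 and 0 for the change of the effect from 24 and from 10 to 48 h. Under median scaling there were 0 lower at 10 h and 7 lower at 24 h, and 1 and 3 for vehicle. Without the level filter there were 0 lower at 10 h and 1 for vehicle at 24 h. The replicate block by run changed 1 histone count, that at 10 h, to 0; it changed no call of the inactive experiment, where 0 remained. Without background correction the H2B median at 24 h was -0.25. Leaving out 1 array gave 0 to 1 lower at 10 h, 4 to 11 lower at 24 h, 5 to 6 higher and 2 to 3 lower at 48 h, 1 to 4 and 0 to 1 for vehicle from 10 to 24 and 24 to 48 h, and 0 to 2 and 5 to 10 for the change of the effect from 10 to 24 and 24 to 48 h. The medians then ranged over -0.36 to -0.20 (H2A, 24 h), -0.39 to -0.31 (H2B, 24 h), 0.017 to 0.091 (H2A, 48 h), 0.10 to 0.22 (H2B, 48 h) and -0.122 to 0.089 (H4, 48 h). Of 47 called gene values 0 changed direction under any alternative. The call was lost for 42 under at least 1 of the 6 alternatives that keep every array. The causes were not tested; the shared spread includes the noisier arrays of the inactive experiment.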
